A study of Rattus norvegicus with 15 samples.

Results

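Opioid peptides and their receptors were followed in neurons of the rat midbrain through 7 genes: the peptide precursors Penk, Pdyn and Pnoc, and the receptors Oprm1, Oprd1, Oprk1 and Oprl1. The array reads a transcript with several short probes, together called a probe set, and every probe set annotated with 1 of these 7 symbols was taken, which gave 14 of the 8740 that are not controls. The 8740 carry 4736 different single symbols. Neurons of the substantia nigra pars compacta (SNc) and of the ventral tegmental area (VTA) had been cut from tissue by laser capture, per the labels, and their total RNA was hybridised to an expression array. SNc was measured on 8 arrays (1 to 8) and VTA on 7 (1 to 6, and 8). No strain, age, sex or treatment of the rats is given in the labels, nor whether a number marks an animal, so a p-value here reflects only how arrays of a region scatter, some of which may be technical. The labels do not say how neurons were recognised.

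Opioid precursors are cut inside secretory vesicles into short peptides: enkephalins from Penk, dynorphins from Pdyn and nociceptin from Pnoc. Enkephalins act on the delta receptor, made from Oprd1, and on the mu receptor, made from Oprm1, which also binds morphine. Dynorphins act mainly on the kappa receptor, made from Oprk1, and nociceptin on its own receptor, made from Oprl1. All 4 receptors couple to inhibitory G proteins, which lower cyclic AMP, open inwardly rectifying potassium channels and close calcium channels. In the midbrain, mu receptors are best known on GABA neurons that restrain dopamine neurons, whereas kappa and nociceptin receptors are also found on dopamine neurons themselves.

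No opioid gene passed the test between the regions. Signals are the deposited linear intensities. Each difference subtracts the VTA from the SNc mean of log2(intensity + 16), and is from limma with Benjamini-Hochberg adjustment over the 5244 probe sets tested at a threshold of 0.05. Of the 14 opioid probe sets, 8 passed the filter on low signal, for 6 of the 7 genes, and 6 lay below it, at a mean signal over all arrays of no more than 28.47. In limma 0 of the 8 were called, against 104 of all 5244 (1.98%). Of these 104, 44 were higher in SNc (0.839% of all tested) and 60 lower (1.14%). A separate fit after median centring of the arrays called 105, of which 67 were higher in SNc and 38 lower. On the deposited scaling, an unadjusted p under 0.05 was reached by 1 of the 8, the mu receptor probe set S77863_s_at, against 15.7% of all probe sets. The exact Wilcoxon test also called 0 of the 8. In 6 of the 8 the difference was negative, as in 56.7% of all probe sets tested, and the median of the 8 was -0.16, against -0.04 over all. Their median absolute difference was 0.16, and that of all probe sets tested 0.18. The SNc and VTA arrays overlapped in each of the 8, and 0.858% of all probe sets tested did not overlap.

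The captures carried dopamine neuron transcripts in both regions, with some signal from other cells. The summed signal of 7 dopamine neuron markers, among them the synthesis enzyme Th and the transporter Slc6a3, ran from 24100 to 30760 in SNc and from 20200 to 28980 in VTA, and 0 of the 7 were called in limma. For 5 GABA neuron markers the sum ran from 924.8 to 1859 in SNc and from 560.4 to 1122 in VTA, with Gad1 and Pvalb called higher in SNc. Gad2, Slc32a1 and Sst were not called (log2 differences 0.23, 0.07 and -0.11, adjusted p = 0.724, 0.901 and 0.946 in limma). A dimmer Slc32a1 probe set gave -0.42 (adjusted p = 0.162). Oligodendrocyte markers, 5 in all, summed to 5269 to 9490 in SNc and 7686 to 11310 in VTA, with 0 called and all 5 differences negative. The striatal projection neuron markers with a probe set were Adora2a, Drd1 and Tac1, which neurons rich in Penk or Pdyn express in the striatum. They summed to 130.9 to 589.7 in SNc and 167.3 to 489.6 in VTA, with 0 called and Drd1 below the filter. Tac1, whose highest SNc signal was 522.8, differed by -1.04 (SE 0.42, adjusted p = 0.227 in limma). Adora2a differed by -0.21 (SE 0.18, adjusted p = 0.599). Median signal per array was 41.4 ± 3.04 in SNc and 45.1 ± 1.74 in VTA (SD, n = 8 and 7). The part of these differences in the opioid values was not tested. In such samples fewer cells of a type and less RNA per cell cannot be told apart.

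Among the precursor probe sets past the filter, that of Penk had the widest interval. Its only probe set, S49491_s_at, had a lowest, median and highest signal of 31.7, 60.5 and 87.0 in SNc, against 30.2, 63.5 and 139.3 in VTA. All SNc arrays lay within the VTA range, while VTA 2, VTA 4 and VTA 5, at 130.9, 113.6 and 139.3, lay above every SNc array, and VTA 8, at 30.2, below every one. Within VTA the highest signal was 4.61 times the lowest, and within SNc 2.75 times. The means were 58.8 ± 20.1 in SNc and 80.2 ± 46.4 in VTA (SD, n = 8 and 7), with a log2 difference of -0.26 (SE 0.27, 95% interval -0.82 to 0.30, adjusted p = 0.688 in limma). The exact permutation test of this probe set alone gave p = 0.394 (two-sided). Leaving out VTA 5 brought the difference to -0.12, and leaving out VTA 8 to -0.41 (adjusted p = 0.868 and 0.469 in limma).

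**Figure D1:**
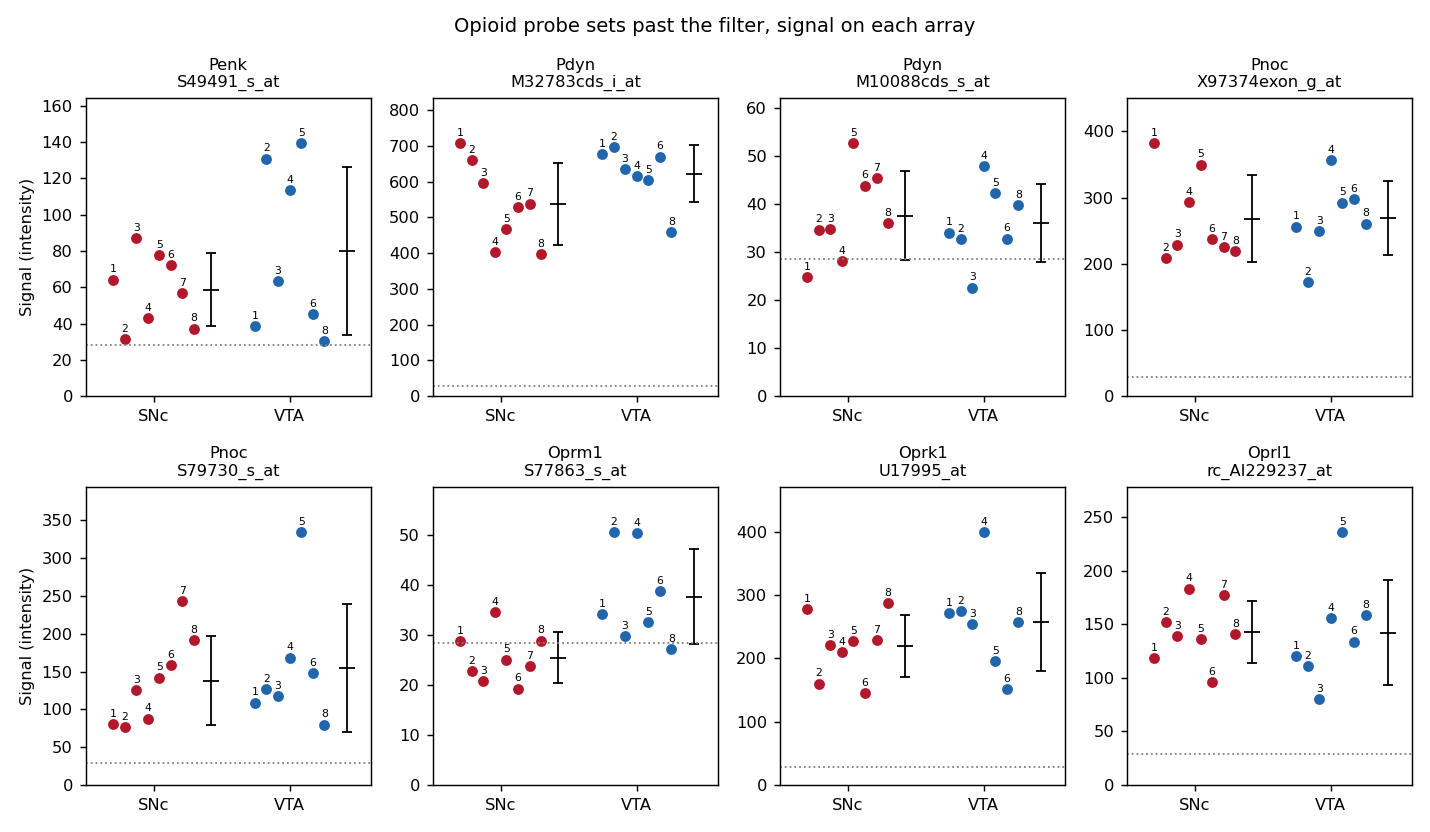
Signal (linear intensity) of the 8 opioid probe sets that passed the filter, 1 point per array, numbered as in the labels, SNc in red and VTA in blue. Black marks are means ± SD, the dotted line is the filter signal of 28.47, and each axis starts at 0. The regions overlap in every panel, and for Oprm1 5 of 8 SNc arrays lie below all VTA arrays.

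Pdyn, the dynorphin precursor, was measured by a pair of probe sets that ran differently over the arrays. The brighter, M32783cds_i_at, had a lowest, median and highest signal of 398.3, 534.2 and 707.0 in SNc, against 458.3, 635.8 and 696.2 in VTA. SNc 4 and SNc 8, at 402.1 and 398.3, lay below every VTA array, and SNc 1, at 707.0, above every one. In VTA, 6 of 7 arrays kept between 604.5 and 696.2, and VTA 8 lay apart at 458.3. The log2 difference was -0.22 (SE 0.15, 95% interval -0.53 to 0.09, adjusted p = 0.505 in limma), and -0.29 without VTA 8 (adjusted p = 0.348). This was the precursor probe set with the smallest p (0.153 unadjusted in limma, and 0.119 by the exact permutation test).

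The other Pdyn probe set, M10088cds_s_at, was close to the filter signal. Its lowest, median and highest signals were 24.9, 35.5 and 52.6 in SNc, against 22.6, 34.0 and 47.9 in VTA. The regions covered nearly the same range, with SNc 5 the highest and VTA 3 the lowest. Its log2 difference was 0.04 (SE 0.14, 95% interval -0.26 to 0.34, adjusted p = 0.927 in limma). With each region's mean subtracted, both Pdyn probe sets had a Pearson r of -0.28 and a Spearman rho of -0.49 over the 15 arrays (permutation p = 0.33 and 0.0743, two-sided, or 0.908 and 0.272 adjusted over 11 pairs of probe sets). Without the 2 arrays farthest from the median of the brighter one, r was -0.31.

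Pnoc, the nociceptin precursor, had 3 probe sets, of which 2 passed the filter. X97374exon_g_at had a lowest, median and highest signal of 209.0, 233.1 and 381.7 in SNc, against 172.8, 260.6 and 356.1 in VTA. The means were nearly equal, at 268.0 ± 65.96 in SNc and 269.4 ± 56.0 in VTA (SD, n = 8 and 7), and the log2 difference was -0.01 (SE 0.17, 95% interval -0.36 to 0.34, adjusted p = 0.982 in limma). SNc 1 was the highest of all 15 arrays here and VTA 2 the lowest.

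S79730_s_at, the second Pnoc probe set, spread more widely. Its lowest, median and highest signals were 76.6, 133.7 and 243.6 in SNc, against 79.8, 126.4 and 334.5 in VTA. VTA 5 was the highest array and SNc 7 the next, and both regions had arrays near 80. Its log2 difference was -0.12 (SE 0.26, 95% interval -0.67 to 0.43, adjusted p = 0.872 in limma), and 0.07 without VTA 5 (adjusted p = 0.912). The Pnoc probe sets past the filter had a Pearson r of -0.03 and a Spearman rho of -0.07 over 15 arrays (permutation p = 0.911 and 0.806, adjusted 0.914 and 0.85). Without the 2 arrays farthest from the median of X97374exon_g_at, r was 0.10.

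The mu receptor had the smallest p of the opioid genes. For Oprm1, S77863_s_at had a lowest, median and highest signal of 19.3, 24.4 and 34.6 in SNc, against 27.2, 34.2 and 50.6 in VTA. SNc 2, SNc 3, SNc 5, SNc 6 and SNc 7, at 19.3 to 25.1, lay below every VTA array, and VTA 2, VTA 4 and VTA 6, at 38.8 to 50.6, above every SNc array. Means were 25.5 ± 5.04 in SNc and 37.7 ± 9.52 in VTA (SD, n = 8 and 7), with a log2 difference of -0.36 (SE 0.13, 95% interval -0.64 to -0.08). That difference did not pass over all probe sets (unadjusted p = 0.0149, adjusted p = 0.193 in limma), and 7.68% of all probe sets tested had a p as small or smaller. The exact permutation test gave p = 0.00544 and the exact Wilcoxon test p = 0.00932, both two-sided, on the deposited scaling and for this probe set alone. Over 26 alternatives the difference stayed negative, from -0.53 to -0.18, with an adjusted p from 0.0907 to 0.341. Some of these, such as the exact tests, cannot change a difference. Only 3 of 8 SNc arrays and 6 of 7 VTA arrays exceeded the filter signal of 28.47, so the probe set passed the filter through VTA. With each array centred on its median the difference was -0.27 (unadjusted p = 0.0568, adjusted p = 0.341 in limma). After quantile normalization it was -0.275 (unadjusted p = 0.0501, adjusted p = 0.339 in limma). Whether its unadjusted p was under 0.05 thus depended on the scaling.

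The other 3 Oprm1 probe sets lay below the filter and did not all point one way. D16349_at had a lowest, median and highest signal of 3.24, 4.56 and 23.2 in SNc, against 5.18, 26.3 and 36.5 in VTA. Of the SNc arrays, 6 kept under 7 and only SNc 5 and SNc 8 reached 15.4 and 23.2, while VTA 2, VTA 4, VTA 5 and VTA 6 lay above all SNc arrays. In a limma fit without the filter its log2 difference was -0.60 (SE 0.21, 95% interval -1.05 to -0.15), which did not pass over 8740 probe sets (unadjusted p = 0.0121, adjusted p = 0.205), and the exact permutation test gave p = 0.0244. In that fit 1.16% of the 8740 were called. S79903mRNA_g_at and S79903mRNA_at differed by -0.09 (95% interval -0.29 to 0.12) and 0.06 (95% interval -0.26 to 0.37), with adjusted p = 0.766 and 0.92. Their signals ran from 7.17 to 20.3 in SNc and 13.8 to 18.4 in VTA for the first, and from 5.10 to 27.7 in SNc and 7.61 to 13.6 in VTA for the other.

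**Figure D2:**
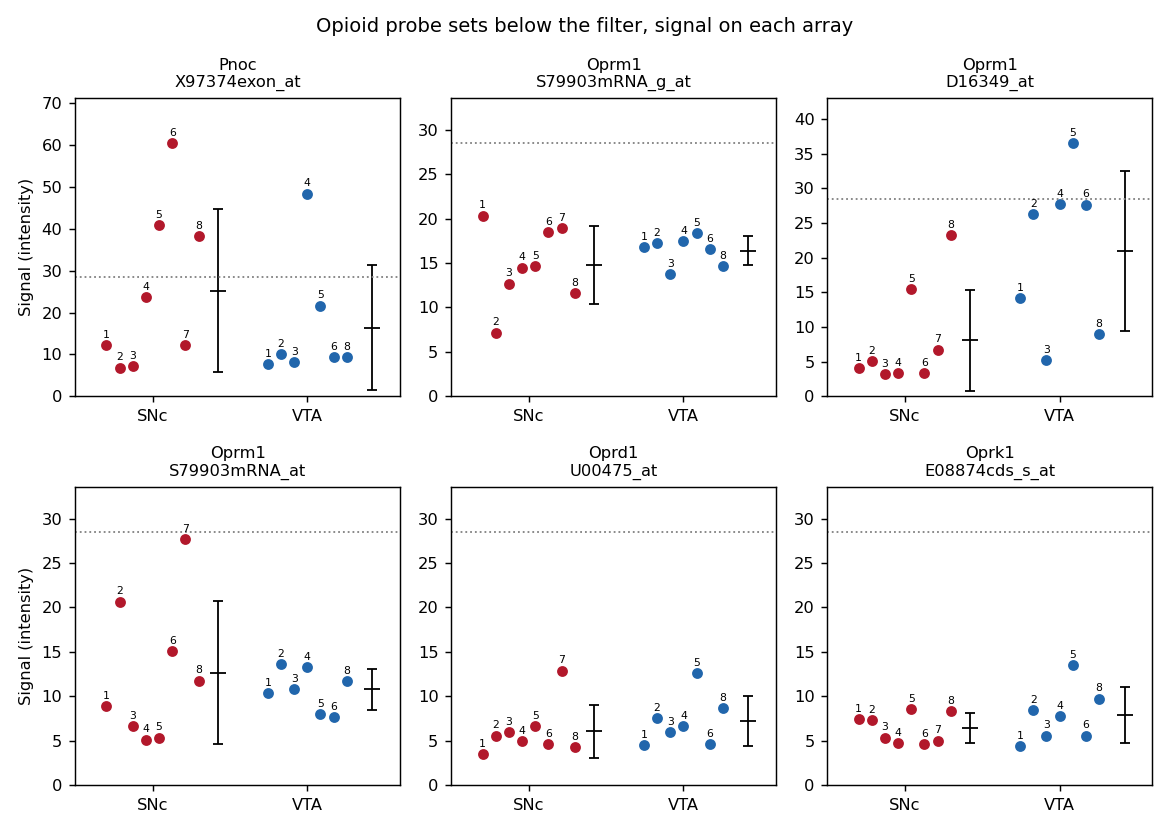
Signal (linear intensity) of the 6 opioid probe sets below the filter, drawn as in the plot of the probe sets past it, with the dotted line at 28.47. For D16349_at of Oprm1, 4 of 7 VTA arrays lie above all SNc arrays, while the other 2 Oprm1 panels overlap over most of their range.

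Of the 11 pairs of probe sets that share a gene, the highest r values were those of an Oprm1 and a Pnoc pair. With region means subtracted, the Pearson r of S77863_s_at and D16349_at of Oprm1 was 0.47 and Spearman rho 0.59 over 15 arrays (permutation p = 0.11 and 0.0353, adjusted 0.605 and 0.272), and r was 0.39 without the 2 arrays farthest from the median of S77863_s_at. For S79730_s_at and X97374exon_at of Pnoc, r was 0.45 and rho 0.50 (permutation p = 0.105 and 0.0719, adjusted 0.605 and 0.272), and r was 0.70 without the 2 arrays farthest from the median of S79730_s_at. Over all 11 pairs, from Pdyn, Pnoc, Oprm1 and Oprk1, Pearson r ran from -0.28 to 0.47, with 6 positive and 5 negative, and 0 passed the permutation test after adjustment (adjusted p from 0.605 to 0.914). Each probe set is therefore given by itself.

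**Figure D3:**
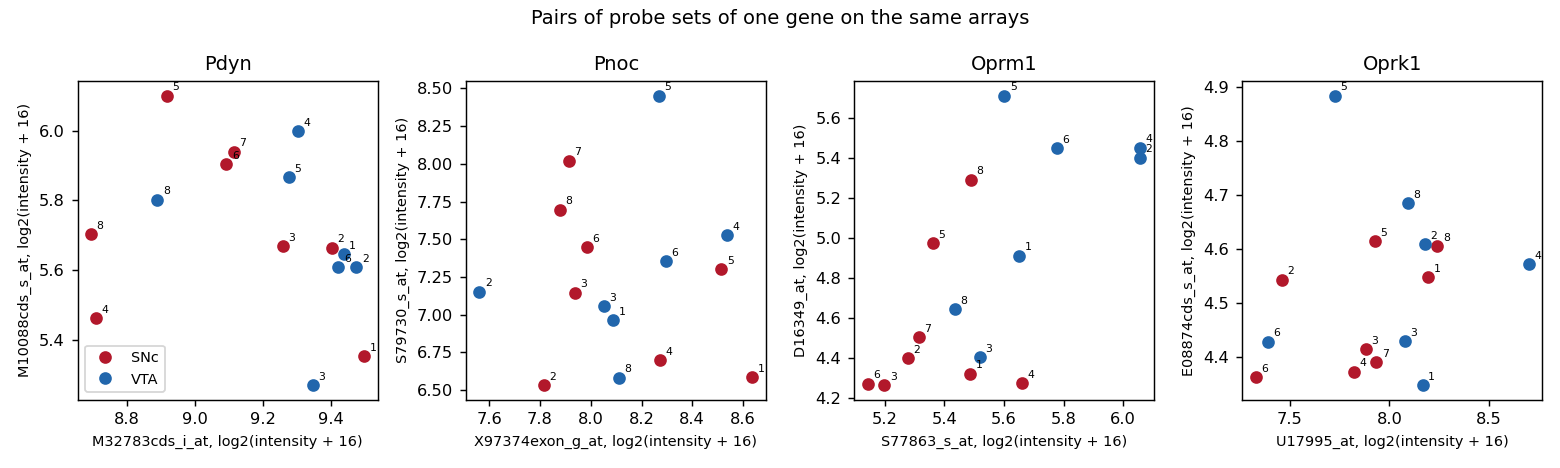
Pairs of probe sets of Pdyn, Pnoc, Oprm1 and Oprk1, each axis on the log2(intensity + 16) scale, 1 point per array with its number, SNc in red and VTA in blue. Points are drawn without subtracting region means, so they include the region difference, which is negative for both Oprm1 probe sets. With region means subtracted, r was 0.47 for the Oprm1 pair, of which D16349_at lies below the filter, and -0.28 for the Pdyn pair. Neither passed the permutation test after adjustment (adjusted p = 0.605 and 0.908).

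Oprk1, the kappa receptor, overlapped between the regions. U17995_at had a lowest, median and highest signal of 144.9, 223.9 and 286.5 in SNc, against 151.8, 257.3 and 399.2 in VTA. VTA 4 was the highest array and SNc 6 the lowest, with VTA 6 next to it at 151.8. The log2 difference was -0.20 (SE 0.18, 95% interval -0.59 to 0.19, adjusted p = 0.648 in limma). E08874cds_s_at, below the filter, ran from 4.58 to 8.50 in SNc and 4.38 to 13.5 in VTA, with a difference of -0.08 in the fit without the filter (95% interval -0.28 to 0.11, adjusted p = 0.751).

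Oprl1, the nociceptin receptor, had nearly equal means. Its single probe set, rc_AI229237_at, had a lowest, median and highest signal of 95.9, 140.3 and 183.4 in SNc, against 80.1, 134.0 and 236.3 in VTA. SNc arrays lay inside the VTA range, which VTA 3 and VTA 5 set. Means were 143.1 ± 28.7 in SNc and 142.4 ± 49.4 in VTA (SD, n = 8 and 7), with a log2 difference of 0.04 (SE 0.18, 95% interval -0.34 to 0.42, adjusted p = 0.939 in limma). Without VTA 5 it was 0.16 (adjusted p = 0.686).

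The delta receptor Oprd1 was below the filter on every array. U00475_at ran from 3.44 to 12.9 in SNc, with a median of 5.24, and from 4.49 to 12.6 in VTA, with a median of 6.60. SNc 7 and VTA 5 were the highest of their regions, at 12.9 and 12.6, and the other SNc arrays kept under 7. In the fit without the filter the log2 difference was -0.08 (95% interval -0.29 to 0.14, adjusted p = 0.809). The third Pnoc probe set, X97374exon_at, had a median of 18.0 in SNc, where SNc 6 reached 60.5, and of 9.41 in VTA, where VTA 4 reached 48.5 (difference 0.31, 95% interval -0.30 to 0.92, adjusted p = 0.698). The offset of 16 exceeds many of these signals, so the sizes of log2 differences below the filter depend on it: for D16349_at the difference was -1.37 with an offset of 1.

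**Figure D4:**
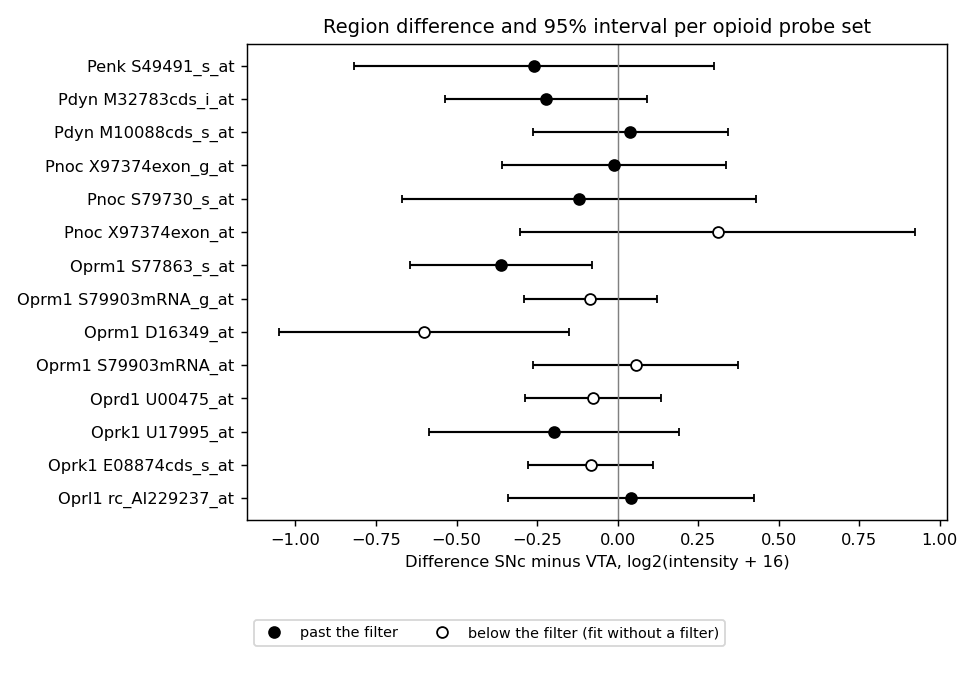
Log2 difference of intensity + 16, SNc minus VTA, with its 95% interval for the 14 opioid probe sets, filled points from the limma fit past the filter and open points from the fit without it. Intervals of 12 probe sets include 0, and those of the Oprm1 probe sets S77863_s_at and D16349_at lie below it, though neither passed after adjustment.

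The intervals limit what these arrays could have shown. To reach the largest p that was called (0.000986), a difference of 0.53 would have been needed for S77863_s_at of Oprm1, 0.58 for M32783cds_i_at of Pdyn and 1.04 for Penk, at each probe set's own SE. As folds of signal plus offset these are 1.44, 1.5 and 2.06. The 95% intervals of the 8 probe sets tested leave room for SNc values of signal plus offset from 0.567 to 1.23 times those in VTA for Penk, from 0.779 to 1.26 times for X97374exon_g_at of Pnoc and from 0.79 to 1.34 times for Oprl1. At these SEs, from 8 and 7 arrays, an estimated difference smaller than the one needed would not have been called. The power to detect a true difference of a given size was not computed.

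VTA 5, singled out after its values were seen, gave the highest VTA signal in 7 of the 14 opioid probe sets, whereas it was the highest VTA array in 20.6% of all 8740 probe sets. It was the lowest in 0 of the 14, against 18% of all. Of those 7, Penk, S79730_s_at of Pnoc and Oprl1 were past the filter. The rest lay below it: Oprd1, D16349_at and S79903mRNA_g_at of Oprm1, and E08874cds_s_at of Oprk1. VTA 4 was the highest VTA array in 4 of the 14, against 19.3% of all. VTA 5 also had the lowest median correlation with the other arrays, 0.909 on the log2 scale, where the others ran up to 0.940. Without VTA 5 the same fit still called 0 of the 8 opioid probe sets. Over the 26 pairs of probe sets past the filter from different opioid genes, the Pearson r with region means subtracted had a median of 0.12 and ran from -0.32 to 0.55. These pairs share the same 15 arrays, and the values are given as a description.

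Genes whose signals ran most like each opioid gene over the 15 arrays, with region means subtracted, were looked up among 3215 genes and are given without a test, since they are the highest of many. Penk was followed most closely by Cyb5b, a cytochrome b5 of mitochondria (Pearson r 0.88, Spearman rho 0.91), and by Ryk, a Wnt receptor (0.79 and 0.80). For the brighter Pdyn probe set these were Ergic1 (0.77 and 0.83) and S1pr2, a sphingosine phosphate receptor (0.76 and 0.73). For Pnoc they were Or4c52, an odorant receptor (0.89 and 0.86), and Syt17, a synaptotagmin (0.86 and 0.78), by X97374exon_g_at. Oprm1 ran with Tomm6, a subunit of the mitochondrial import pore (0.80 and 0.86), and Fntb, a farnesyltransferase subunit (0.80 and 0.89). Oprk1 ran with Maco1 (0.83 and 0.75) and the complement gene C1qc (0.80 and 0.76), and Oprl1 with Prkag1, a subunit of AMP-activated kinase (0.76 and 0.87), and Rfx5, a transcription factor (0.75 and 0.82). None of these 12 genes was called between the regions in limma (adjusted p from 0.208 to 0.997). The median absolute r of the 3215 genes lay between 0.197 and 0.246 for the 6 probe sets.

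Genes that make, break down or answer to opioid peptides were taken from 6 lists with 59 entries. A probe set existed for 47 of them, 38 of these passed the filter, and 1 was called, lower in SNc, or 2.63% against 1.98% of all probe sets. Of the 38, 16 differences were positive and 22 negative, with a median of -0.07. The one called was Kcnj5, a subunit of the inwardly rectifying potassium channels that opioid receptors open, with a lowest and highest signal of 4.53 and 61.9 in SNc, against 60.4 and 156.7 in VTA. Only SNc 5 overlapped with VTA 1. The log2 difference was -1.53 (SE 0.26, adjusted p = 0.0023 in limma), with a mean in SNc of 23.8, under the filter signal. In SNc only SNc 1 and SNc 5, at 36.8 and 61.9, exceeded the filter signal, whereas every VTA array did. Kcnj5 thus passed the filter through VTA. The size of its difference depended on the offset, at -2.25 with an offset of 1 and -0.84 with an offset of 64 for Kcnj5. Its partners Kcnj3, Kcnj6 and Kcnj9 were below the filter by their mean over all arrays. Among 7 effectors tested by their brightest probe set, Adcy5, an adenylyl cyclase, came next (0.32, SE 0.17, adjusted p = 0.39). A dimmer probe set of Cacna1b, a calcium channel subunit, gave -0.70 (SE 0.26, adjusted p = 0.19), and its brightest 0.07.

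Of the enzymes and helpers that process the precursors, none of the 6 tested was called. Cpe, the carboxypeptidase that trims peptide ends, averaged 6078 ± 1395 in SNc and 5814 ± 1075 in VTA (difference 0.05, SE 0.16, adjusted p = 0.915 in limma), and Scg5, the chaperone of the convertase PC2, 4127 ± 789.3 in SNc and 3845 ± 573.7 in VTA. Pcsk2, which is PC2 itself and cuts all 3 opioid precursors, averaged 200.1 ± 34.5 in SNc and 322.8 ± 108.8 in VTA (difference -0.60, SE 0.19, adjusted p = 0.114). Among the fits of this probe set, Pcsk2 was called only when VTA 6 was left out (log2 difference -0.73, adjusted p = 0.0466 in limma). Its dimmer probe set, S40669_s_at, lay below the filter at a mean signal of 9.07. Furin, a convertase of the Golgi, differed the other way (0.48, SE 0.15, adjusted p = 0.126), by 1 of its 2 probe sets, while the other gave -0.03.

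Of 7 peptidases tested, 0 were called, 2 differences were positive and 5 negative. Dpp3, which cleaves enkephalins, averaged 706.2 ± 158.9 in SNc and 486.3 ± 119.5 in VTA (difference 0.52, SE 0.18, adjusted p = 0.145), and Dpp4 differed by -0.63 (SE 0.25, adjusted p = 0.227). Mme, or neprilysin, a main enkephalin-degrading enzyme, was below the filter, at 6.55 ± 2.95 in SNc and 8.94 ± 5.51 in VTA. None of 10 G protein subunits was called, with 5 positive and 5 negative, among them Gnai1 (-0.28, SE 0.19, adjusted p = 0.503) and Gnao1 (0.21, SE 0.15, adjusted p = 0.539), whose dimmer probe set gave 0.38 (adjusted p = 0.192). Of 7 tested genes that shut off receptor or G protein signalling, 0 were called, and the smallest p values were those of Grk6, a receptor kinase (-0.44, SE 0.18, adjusted p = 0.228), and Rgs8, which speeds G protein shut-off (0.56, SE 0.34, adjusted p = 0.455). Pomc, the precursor of beta-endorphin, averaged 48.6 ± 18.4 in SNc and 53.8 ± 20.1 in VTA (-0.10, SE 0.21, adjusted p = 0.872). Over these lists an unadjusted p under 0.05 in limma was reached by 6 of the 38 genes, Kcnj5 and 5 others (Pcsk2, Furin, Dpp3, Dpp4 and Grk6), a share near the 15.7% of all probe sets.

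**Figure D5:**
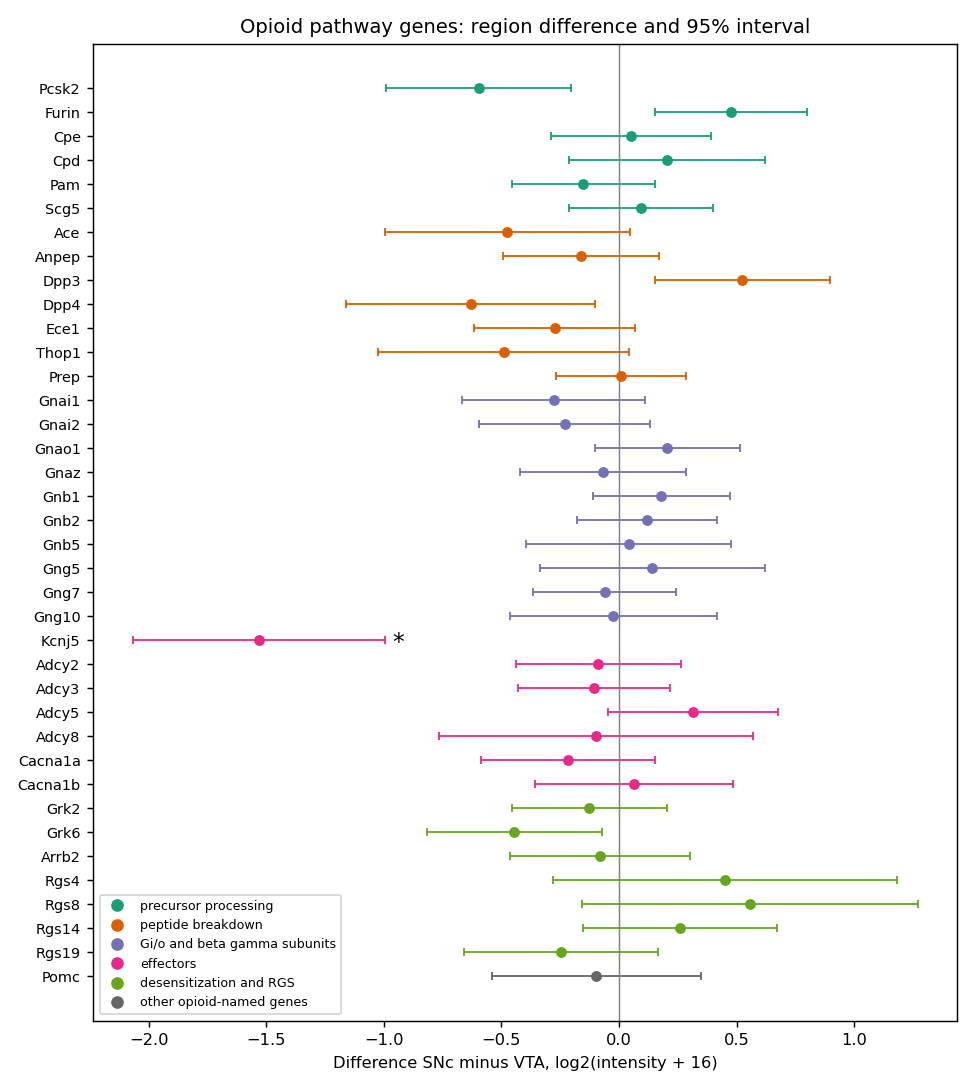
Log2 difference of intensity + 16, SNc minus VTA, with its 95% interval for the 38 pathway genes that passed the filter, coloured by list. The star marks Kcnj5, the one gene called in limma after adjustment over all probe sets.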

How the data were processed

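Each array is represented in the deposited file by 1 linear intensity for every probe set, and all 15 arrays had a 2% trimmed mean of 150.2, so the authors had, judging by these values, put them on one scale. How the intensities were made (software, background correction, amplification) is not given in the sources used here. Detection calls were left aside. Of 8799 probe sets, 59 controls were left out. Symbols came from the platform annotation, which gave 7006 probe sets a single symbol. An offset of 16 was added before log2, and a filter dropped the dimmest 40% by mean signal (28.47 or less), leaving 5244. The regions were compared with limma 3.58.1 under R 4.3.3 (lmFit, eBayes, two-sided tests, Benjamini-Hochberg over all tested, threshold 0.05), and opioid probe sets below the filter in the same fit without it. The fit was also run on simulated data with independent noise for each probe set and array. That simulation held no effects shared between arrays, so it cannot show how the fit behaves where arrays share them.

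Exact permutation and Wilcoxon tests ran over all 6435 splits of the arrays. Probe sets of a gene were correlated with 100000 permutations within regions. A pathway gene was represented by its brightest probe set, and the genes named are those called and the 2 with the smallest p of each list. For each opioid gene past the filter, the 2 genes with the highest Pearson r were named. Alternatives were other normalizations, offsets, filters, variance models and tests, the array number as a block, and leaving out each array. The members, lists and tests were chosen with earlier results of these data known. Precision is limited by the number of arrays.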

Additional observations from a re-analysis of the deposited data

Results flagged for a closer look

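Of 28 groups of arrays, 14 opioid probe sets in each of 2 regions, 2 held an array that lay apart from the rest by more than Dixon's 95% critical value, on the log2(intensity + 16) scale. Chance gives such an array in about 1 of 20 groups. For Pdyn, M32783cds_i_at had a signal of 458.3 on VTA 8, while the other VTA arrays ran from 604.5 to 696.2. For Oprd1, U00475_at had a signal of 12.88 on SNc 7, while the other SNc arrays ran from 3.439 to 6.584, all below the filter signal of 28.47.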

How the results depend on the processing

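In all 26 alternatives 0 of the opioid probe sets tested were called, and their median difference stayed negative, from -0.22 to -0.05. The filter of 60% dropped S77863_s_at of Oprm1 and M10088cds_s_at of Pdyn, which left 6 of the 8. Differences of S77863_s_at of Oprm1, M32783cds_i_at of Pdyn, Penk and U17995_at of Oprk1 kept their sign in each alternative that tested them. Other filters, the trended and robust variance and the exact tests leave a probe set's difference as it is, so they could not turn a sign. The sign turned, always uncalled, in 4 probe sets near 0. X97374exon_g_at of Pnoc gave 0.0113 after quantile normalization, 0.0803 after median centring, 0.0171 with a fixed replicate block and -0.107 to 0.0558 on leaving out 1 array. Oprl1 gave -0.0017 with that block and -0.0688 to 0.163 on leaving out 1 array, which gave -0.24 to 0.0726 for S79730_s_at of Pnoc and -0.0303 to 0.092 for M10088cds_s_at of Pdyn. The cause was not tested. Over all probe sets, 61 were called with an offset of 1, 185 with array weights, 67 by the exact Wilcoxon test and 57 to 112 on leaving out 1 array, against 104. The array whose absence gave 57 was SNc 3. Of the pathway genes 0 were called with a filter of 60%, which leaves out Kcnj5, and 1 to 2 on leaving out 1 array. Kcnj5 passed in 25 alternatives (-2.25 to -0.84, adjusted p up to 0.0487 in the exact Wilcoxon test).

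Arrays of both regions share 7 numbers. Deviations of same-numbered arrays from their region means correlated at 0.048 to 0.254, over 0.1 in 5 of 7 pairs. Means with the other numbers were -0.038 to -0.004. Deviations within a region sum to 0, which itself pulls those means below 0 where the same-number r is positive, so they are no independent baseline. Of the 7 SNc arrays with a shared number, 3 correlated best with their own number. For each of the rest, only 1 VTA array correlated more closely than the same-numbered one. This is a hint of pairing from the data, but the labels state no pairing, so the arrays were not treated as paired. The SEs and p-values of the main fit therefore leave a possible pairing out of account. With the replicate block 101 (fixed) and 156 (random) probe sets were called, 0 of them opioid. Probe sets under a signal of 28.47 limit what can be said of Oprd1 and of most Oprm1 probe sets.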
